A study of Mus musculus with 37 samples.

Results

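The genes described here encode the proteins of the cytosolic ribosome. They were chosen by name: every row of the deposited expression table whose symbol is Rpl or Rps followed by a number with at most 1 suffix letter and digit, Rplp0 to Rplp2, and Rpsa, leaving out the Rps6k kinases. The rule found 84 of the 23947 rows. Of these, 77 encode proteins of the standard ribosome, 43 of them in the large subunit, 3 in its stalk and 31 in the small subunit. The other 7 encode paralogue forms, proteins of a second gene that can stand in for a standard subunit. The mammalian ribosome has 80 proteins, and the rule does not reach 3 of them, among which are those of Fau and Gnb2l1. The values were FPKM, a unit of fragments per transcript length and per total mapped, and levels of different genes are compared here on that scale per length. How the total was set between cells is not stated. Detection was set at 1 FPKM. A gene was called measured if at least 5 cells reached that level, which held for 80 of the 84.

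The samples were 37 single cells labelled as adipose tissue macrophages, sorted from epididymal white fat of male C57BL/6J mice. The mice ate a high-fat diet, with 60% of its energy from fat, 20% from carbohydrate and 20% from protein, and a 30 min collagenase digest freed the cells from the fat. A Fluidigm C1 microfluidic chip caught the cells 1 to a chamber, and Nextera XT libraries were made from their polyadenylated RNA. All 37 cells shared 1 set of labels, with no other diet, strain, depot or treatment among them. The labels tie no cell to an animal and give no sorting gate, so the cells count as 1 sample and the values below describe them without tests between groups.

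Ribosomal proteins are needed in matched amounts, and their messenger RNAs are among the most abundant of most cells. Many of these messengers begin with a C followed by a run of C and T letters (a 5′ terminal oligopyrimidine, or TOP, motif), through which growth signals such as mTOR control their translation. Most ribosomal protein genes have processed pseudogenes, copies of the spliced messenger set back into the genome, and short reads can match the gene and its copies alike. Macrophages gather in the fat of obese mice, where they take up debris and lipid from dying adipocytes.

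The start sites were read from RefSeq promoters of build GRCm38.p6, while the deposited values were made on mm9, so no coordinate here was joined to a deposited value. A promoter was given for 63 of the 84 genes, with 75 start sites. The first transcribed base lay in a run of at least 5 C or T letters in 20 of the 63 genes (31.7%), against 11.8% of the 27025 genes of that table. The 12 windows that follow, chosen from those 20 to cover both subunits and the stalk, show 30 bases before the start and the first 20 bases of the transcript. They run 5′ to 3′, and capitals mark the run of C and T that crosses the start. The first 6 belong to the large subunit, with the stalk gene Rplp2 last.
Rpl14, chr9:120571487-120571536 (plus strand): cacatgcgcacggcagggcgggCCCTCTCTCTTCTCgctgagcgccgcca
Rpl15, chr14:18270967-18271016 (minus strand): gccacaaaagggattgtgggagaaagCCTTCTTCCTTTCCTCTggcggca
Rpl28, chr7:4792935-4792984 (plus strand): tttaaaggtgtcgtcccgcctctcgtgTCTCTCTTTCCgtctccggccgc
Rpl35, chr2:39005112-39005161 (minus strand): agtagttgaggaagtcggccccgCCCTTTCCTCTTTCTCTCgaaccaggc
Rpl38, chr11:114668550-114668599 (plus strand): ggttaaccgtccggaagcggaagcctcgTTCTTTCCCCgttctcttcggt
Rplp2, chr7:141447621-141447670 (plus strand): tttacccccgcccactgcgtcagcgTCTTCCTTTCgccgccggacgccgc

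The other 6 windows belong to the small subunit and are drawn in the same way. Rps6, the protein that S6 kinases phosphorylate, had a run of 10 bases.
Rps6, chr4:86857348-86857397 (minus strand): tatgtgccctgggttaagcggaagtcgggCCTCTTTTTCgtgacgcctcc
Rps9, chr7:3704011-3704060 (plus strand): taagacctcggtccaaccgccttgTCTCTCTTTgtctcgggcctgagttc
Rps10, chr17:27635225-27635274 (minus strand): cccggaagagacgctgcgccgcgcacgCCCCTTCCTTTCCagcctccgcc
Rps15a, chr7:118116128-118116177 (minus strand): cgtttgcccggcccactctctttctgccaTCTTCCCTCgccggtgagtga
Rps24, chr14:24490648-24490697 (plus strand): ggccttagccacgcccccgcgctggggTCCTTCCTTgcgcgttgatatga
Rps27, chr3:90213629-90213678 (minus strand): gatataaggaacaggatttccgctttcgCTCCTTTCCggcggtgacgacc

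The windows of Rpl41 and Rpl26 held no such run over the annotated start, which says only that the letters at that base differ. They are shown because Rpl41 was among the highest genes of the set and Rpl26 among the lowest.
Rpl41, chr10:128549149-128549198 (minus strand): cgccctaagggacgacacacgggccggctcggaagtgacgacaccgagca
Rpl26, chr11:68901536-68901585 (plus strand): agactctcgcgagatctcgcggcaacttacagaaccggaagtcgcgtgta

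Fixed motifs were searched on both strands from 250 bases before to 50 bases after each start. CCGGAAG, the letters bound by ETS factors such as GABP, was in 36% of the 75 start regions and in 8.86% of all 32851. GGGCGG, an Sp1 box, was in 60.0% against 35.7%, and AAGATGG, a YY1 motif, in 16% against 6.34%. TATAAA was in 9.33% against 13.6%. A match is a description of letters and not of binding. The genes also held small nucleolar RNA genes, which guide the modification of ribosomal RNA, more often than others. In the GENCODE annotation of GRCm38, 30 of 83 matched genes (36.1%) had at least 1 within their bounds, 58 such RNAs in all, against 204 of the 19516 other protein-coding genes of the table (1.05%).

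Most of the set was found in most cells. Of the 84 genes, 77 were detected in at least 19 of the 37 cells, where 4.03% of all rows were. In all 37 cells 22 were detected (0.359% of all rows), and 57 had a median of 100 FPKM or more (0.785% of all rows). Of the 100 genes of the table with the highest medians, 32 were ribosomal protein genes. The median over genes of their median FPKM was 187 for the large subunit, 399 for the 3 stalk genes and 338 for the small subunit.

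**Figure D1:**
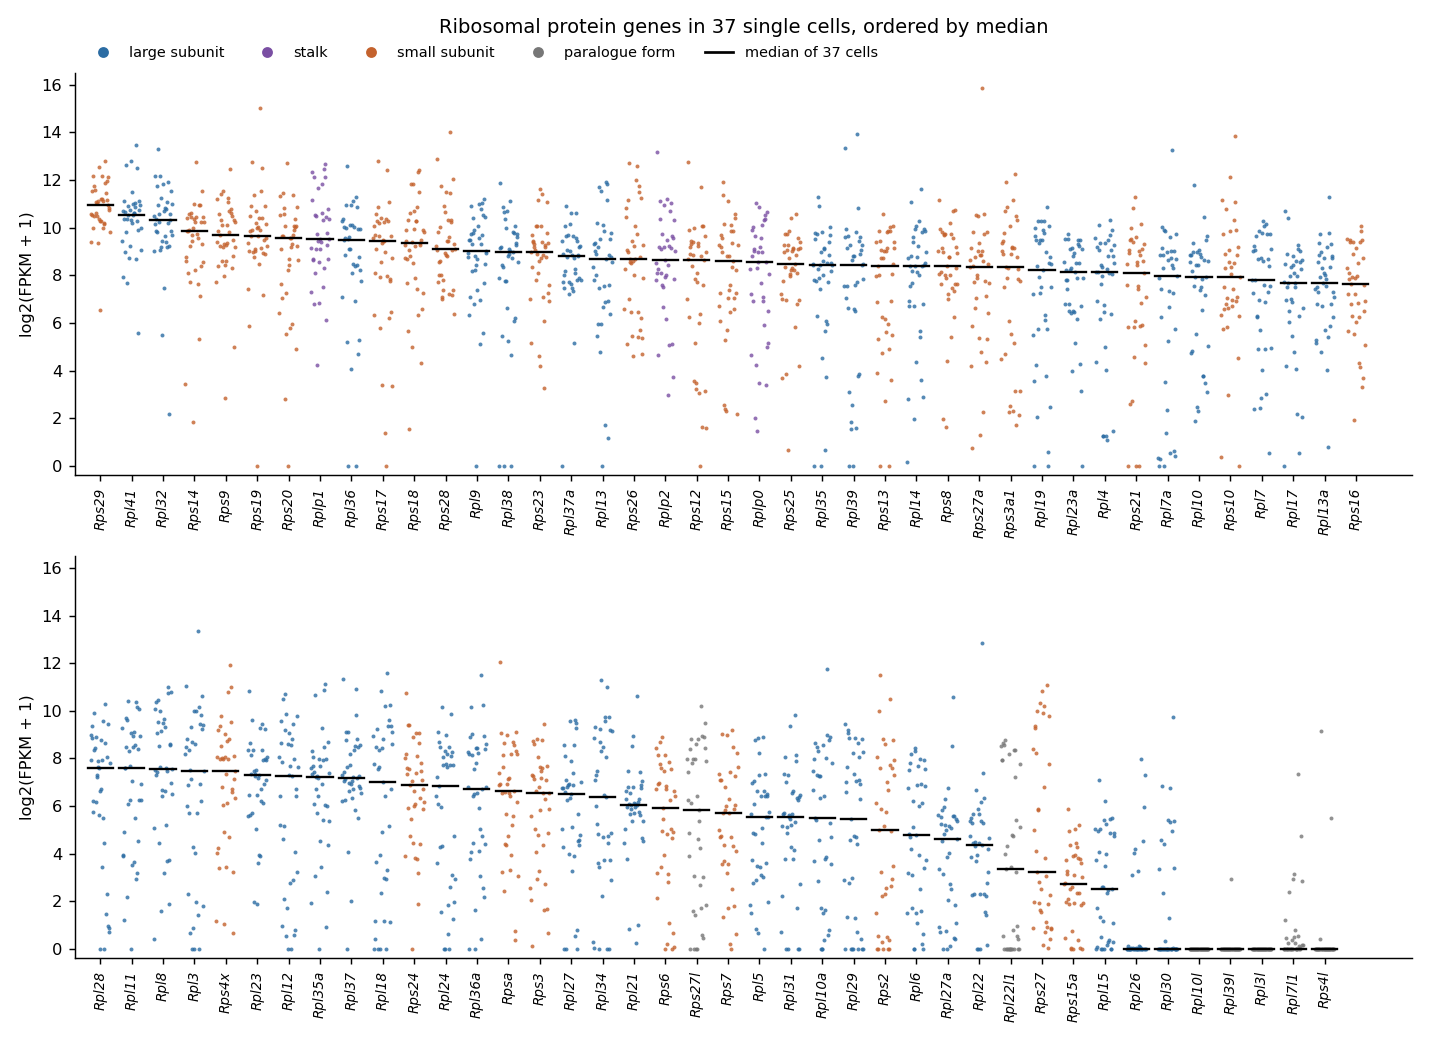
Levels of the ribosomal protein genes by cell, apart from 3 that are not shown; the vertical axis is log2(FPKM + 1), 1 point is 1 cell, the black line is the median of 37 cells, and genes are ordered by that median. Rps29, Rpl41 and Rpl32 lead with narrow interquartile ranges on this axis (1.28, 1.13 and 1.58), though single cells of Rpl32 run from 3.55 to 10156 FPKM. Rps27l, Rpl22l1 and Rps27 have wide ones (6.15, 7.75 and 6.82) and spread from near 0 to 1174, 437 and 2153 FPKM.

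The small subunit gene Rps29 was the highest, with 93.0 FPKM in its lowest cell, a median of 2004 and 7122 in cell 27. Rpl41, which encodes the shortest protein of the ribosome at 25 codons, ran from 47.2 over a median of 1469 to 11385 FPKM. Rpl32 of the large subunit ran from 3.55 over 1297 to 10156 FPKM. No cell lacked these 3 genes, and their lower quartiles lay above the upper quartiles of 70, 65 and 53 of the other 79 measured genes. They were also the highest gene of the set in 11, 8 and 3 cells.

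Below them the levels closed up. Rps14, whose human counterpart is lost in a form of myelodysplasia, had a median of 921 FPKM (2.55 to 6826). Rps9 had 832 (6.28 to 5601). Rps19, whose human counterpart is mutated in Diamond-Blackfan anaemia, had 805, from 0 in cell 17 to 33671 in cell 24. Rps20 had 751 (0 to 6769), Rplp1 of the stalk 733 (17.8 to 6474) and Rpl36 711 (0 to 6239). The interquartile ranges of these 6 overlapped, so their order is not set beyond the spread between cells. The stalk genes Rplp0, Rplp1 and Rplp2, whose proteins recruit the elongation factors, were all detected in 37 cells, with medians of 373, 733 and 399 FPKM.

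The spread between cells differed as much as the levels. Among the 77 genes detected in at least 19 cells, the interquartile range of log2(FPKM + 1) had a median of 2.79 and ran from 1.13 for Rpl41 to 7.75 for the paralogue form Rpl22l1. The other 9 widest were Rps27 (6.82), Rpl29 (6.76), Rps27l (6.15), Rps2 (6.10), Rpl18 (6.00), Rpl12 (5.74), Rpl7a (5.44), Rpl3 (5.29) and Rpl24 (5.22). Rpl3, which lies by the peptidyl transferase centre, shows what such a range means in FPKM. It was listed at 0 in 3 cells, had quartiles of 15.5 and 646 around a median of 177, and reached 10498 in cell 24. Rps2 was at 0 in 5 cells, with quartiles of 1.83 and 193 and a highest value of 2895 in cell 9.

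Single cells also held lone extremes. Rps27a, which encodes ubiquitin fused to a small subunit protein, stood at 59365 FPKM in cell 24 and at no more than 1532 in any other cell. That 1 value was 37.6% of the summed FPKM of the 84 genes in cell 24. Rpl22 stood at 7379 in the same cell and at most 168 elsewhere. Rpl7a stood at 9695 in cell 26 against at most 1037, and Rpl10a at 3423 in cell 27 against at most 502. Rpsa, also known as the laminin receptor, stood at 4189 in cell 2 against at most 560. Cells 2, 24 and 26 were among the 6 cells in which 1 fragment was worth over 4 times the median, by an estimate given below with the cells. The FPKM of all rows summed to 1.12e+06, 1.84e+06 and 1.22e+06 in cells 2, 24 and 26, beside a median of 326230 over the 37 cells. The parts of depth and of the FPKM sum in these extremes were not tested.

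A few standard genes had low medians. Of the 84 genes, 11 had a median under 10 FPKM, of which 5 encode standard proteins. Rpl15 had a median of 4.68 FPKM (0 to 135) and Rps15a one of 5.70 (0 to 57.1). Rps27 had a median of 8.39, with 0.0235 in cell 29 and 2153 in cell 27, and its upper quartile was 332. Rpl26 was detected in 8 cells (21.6%, exact Clopper-Pearson 95% interval 9.83% to 38.2%), with a median of 0.00853 and a highest value of 250 in cell 28. Rpl30 was detected in 13 cells (35.1%, interval 20.2% to 52.5%), with a median of 0.00173 and 849 FPKM in cell 28. These intervals cover the sampling of cells only.

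Rows for near-identical copies were set beside the genes. For each of the 83 genes matched to a GENCODE transcript, the share of its 50-base words that also occur in a transcript of another gene was computed. That share had a median of 51.7% over the 77 standard genes, and was highest for Rps27, at 98.6%. The table holds rows of its own for some of these genes, and 28 pairs of a gene and another row, overlapping genes included, shared at least 10% of the gene's words. In 4 pairs, picked out after their values were seen, the copy had the higher median: Rps27 with Rps27rt, Rpl26 with Gm15772, Rpl30 with Gm12191, and Rpl34 with Rpl34-ps1.

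Rps27rt is an intron-less, protein-coding copy of Rps27, at chr9:114982366-114982739 on the minus strand of GRCm38. Rps27 has 4 exons at chr3:90212522-90213651, also on the minus strand. Their coding sequences of 252 bases differed at 0 positions and are printed once, without the stop.
Rps27 and Rps27rt, shared coding sequence: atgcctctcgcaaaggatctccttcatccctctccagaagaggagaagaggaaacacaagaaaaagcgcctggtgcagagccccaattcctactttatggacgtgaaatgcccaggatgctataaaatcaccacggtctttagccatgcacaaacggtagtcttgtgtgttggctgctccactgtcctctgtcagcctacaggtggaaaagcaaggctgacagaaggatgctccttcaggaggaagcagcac
Rps27rt had a median of 995 FPKM, was detected in all 37 cells and exceeded Rps27 in 33 of them. The values of both rows added per cell had a median of 1217 FPKM, from 15.2 in the lowest cell to 8599 in cell 26. In FPKM the pair as a whole thus stood near Rpl32, while Rps27 alone ranked among the lowest. The rank correlation of both rows over cells was 0.10.

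Gm15772 is a processed pseudogene at chr5:3236431-3236868 on the plus strand, and Rpl26 lies at chr11:68901583-68906989 on the plus strand. Over the 435 coding bases of Rpl26, whose protein also binds the messenger of p53, the copy differed at 2 positions, C177T and T288C, counted from the A of the start codon. The first is shown with 20 bases on each side, the differing base in capitals.
Rpl26, bases 157 to 197: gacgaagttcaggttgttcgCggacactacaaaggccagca
Gm15772, bases 157 to 197: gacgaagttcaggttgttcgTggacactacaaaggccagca
Gm15772 had a median of 369 FPKM, was higher than Rpl26 in 36 cells and reached 3096 in cell 9. The sum of both rows was at least 1 FPKM in all 37 cells, with a median of 391.

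Rpl30, a large subunit protein that binds its own transcript, lies at chr15:34440505-34443640 on the minus strand. Its copy Gm12191, a processed pseudogene at chr11:49678710-49679057 on the minus strand, differed at 1 of 345 coding bases, G96A.
Rpl30, bases 76 to 116: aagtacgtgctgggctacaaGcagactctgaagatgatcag
Gm12191, bases 76 to 116: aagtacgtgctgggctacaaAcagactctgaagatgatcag
Gm12191 had a median of 146 FPKM and was higher than Rpl30 in 32 cells. Rpl30 was higher in cell 28 alone, at 849 against 255 FPKM. The sum of both rows had a median of 146 and reached 1 FPKM in 32 cells, and the rank correlation of both over cells was 0.79.

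Rpl34 lies at chr3:130726831-130730398 on the minus strand and Rpl34-ps1 at chr6:71124610-71124963 on the plus strand. They differed at 2 of 351 coding bases, T132C and C318G.
Rpl34, bases 112 to 152: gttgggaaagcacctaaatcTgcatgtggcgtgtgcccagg
Rpl34-ps1, bases 112 to 152: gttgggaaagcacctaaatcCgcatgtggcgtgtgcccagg
Here neither row led throughout: Rpl34-ps1 was higher in 24 cells and Rpl34 in 13, with medians of 141 and 82.3 FPKM. Their sum had a median of 502 FPKM. How the authors' counting divided fragments between a gene and its copy was not tested, and the values of these 8 rows are uncertain for that reason.

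**Figure D2:**
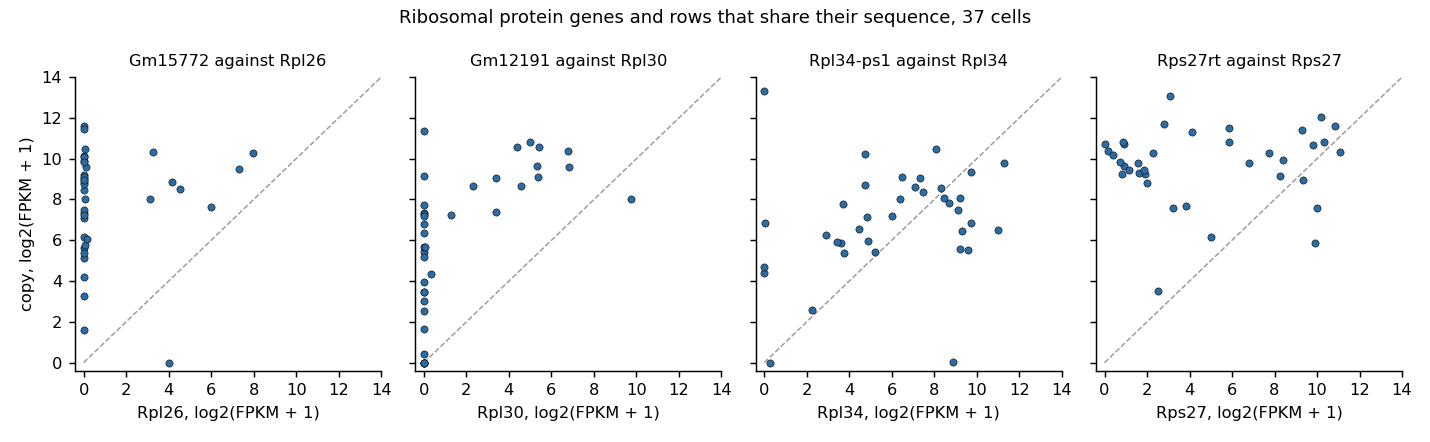
Level of the copy row (vertical axis) against the ribosomal protein gene (horizontal axis), both as log2(FPKM + 1), for the 4 pairs in which the copy had the higher median; 1 point is 1 of 37 cells, and the dashed line marks equal levels. Gm15772 lies above Rpl26 in 36 cells and Rps27rt above Rps27 in 33, while Rpl34 and Rpl34-ps1 fall on both sides.

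The 7 paralogue forms fell into those present in these cells and those at or near 0. Rps27l, a p53-responsive relative of Rps27, was detected in 31 cells with a median of 56.1 FPKM and a highest value of 1174. It exceeded the Rps27 row in 21 of 37 cells and stood below it in 16. Against the summed Rps27 and Rps27rt rows it was higher in 2 cells. Rpl22l1, the paralogue of Rpl22, had the widest quartiles of the set. It was listed at 0 in 12 cells, was detected in 20, had an upper quartile of 215 FPKM and peaked at 437 in cell 7. Rpl22 itself had a median of 19.5, Rpl22l1 exceeded it in 16 cells, and the rank correlation of both over cells was 0.31.

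The other 5 forms were low. Rpl7l1, a relative of Rpl7, was detected in 7 cells, with 162 FPKM in cell 28. It was below Rpl7 in all 37 cells. Rps4l was detected in 2 cells, at 570 FPKM in cell 11 and 44.8 in cell 30. Rpl39l, known from testis, was detected in 1 cell at 6.60 FPKM. Rpl10l, also known from testis, and Rpl3l, known from heart and skeletal muscle, were listed at 0 in all 37 cells.

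The summed share of the set ranged widely between cells. The 84 genes made up 6.09% (cell 14) to 20.3% (cell 22) of a cell's summed FPKM, with a median of 9.29%. The median without cells 7 and 27 was 9.25%. Between 58 (cell 17) and 79 (cells 21 and 28) of the 84 genes were detected per cell, and a median of 6 were listed at 0, a value that can also stand for an estimate that failed. Cell 17 had 24 genes at 0. In 7 cells 12 or more were at 0, and 5 of these cells were among the 6 cells in which 1 fragment was worth over 4 times the median.

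That fragment value is a stand-in for depth, which the table does not give, and is estimated from the ratios of low values between cells. It spanned 98.1-fold over the 37 cells. The number of the 84 genes at 0 went with it at a Spearman rho of 0.48 over 37 cells, and with the number of all genes detected at -0.25. The share of summed FPKM went with the fragment value at -0.09. Points of such correlations share their library, so they are descriptions of these cells.

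Large and small subunit genes took near-equal parts. The large subunit and stalk together made 31.8% (cell 24) to 61.5% (cell 33) of the set's summed FPKM, with a median of 48.4%. Their sum exceeded that of the small subunit in 19 cells and fell below it in 18.

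A score per cell was made as the mean z value of log2(FPKM + 1) over the 80 measured genes. It was highest in cells 27 (0.96), 7 (0.87) and 28 (0.84), and lowest in cell 17 (-0.94). The next highest cell stood at 0.40. Cells 27, 7 and 28 also had the most genes detected, with 3054, 3204 and 2769, beside a median of 1824. Over cells the score went with that number at a rho of 0.33, and at 0.21 without cells 7 and 27. In cell 7, 97.5% of the 80 genes lay above their own median over the 37 cells, in cell 27 90% and in cell 28 87.5%. Of all 4694 measured genes, 57.2%, 53.2% and 59.8% did so in these cells. At the other end, 23.75% of the 80 lay above their median in cell 29 and 26.25% in cell 17, against 41.4% and 37.8% of all measured genes. Cell 27 alone held the highest value of 17 of the 80 genes. Its FPKM over all rows summed to 814569, beside a median of 326230 over the 37 cells. Cells 2 and 26, which also had high sums, held 11 each. The part of the FPKM sum was not tested.

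**Figure D3:**
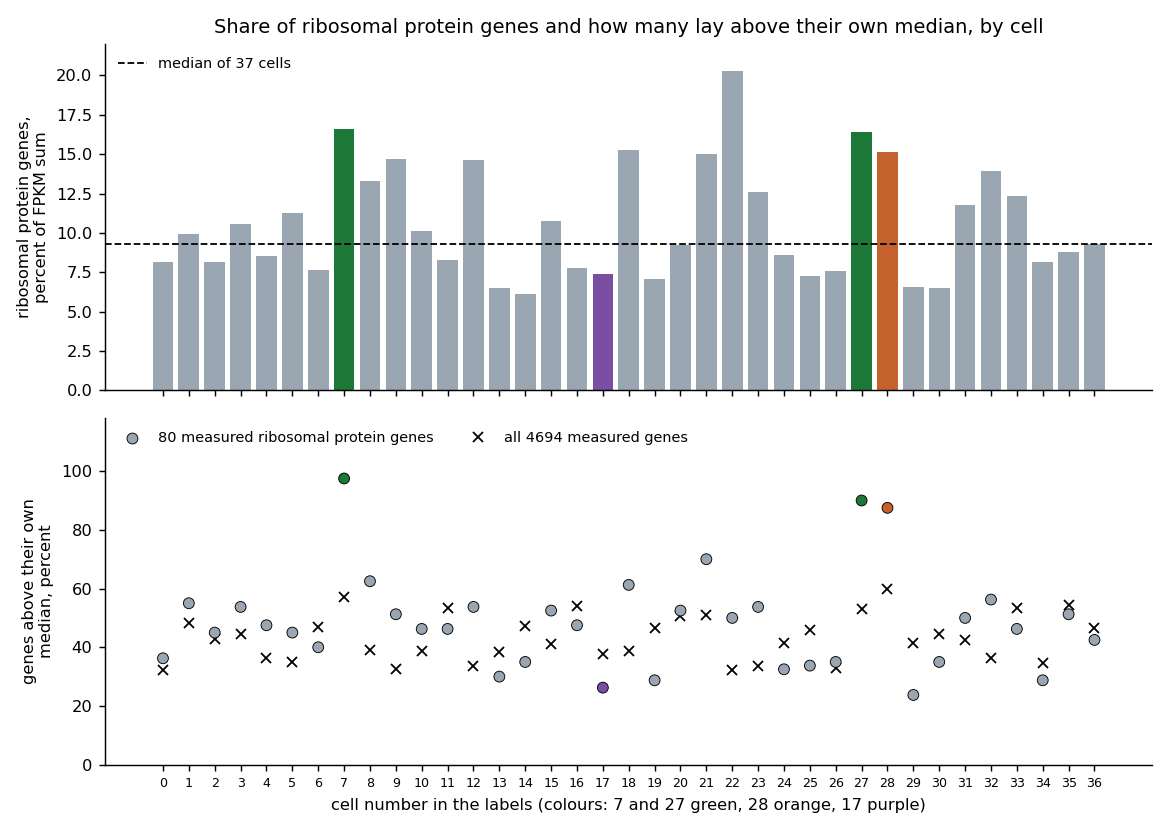
Upper panel: summed FPKM of the 84 ribosomal protein genes as a percentage of each cell's FPKM sum, with the median of 37 cells (9.29%) dashed. Lower panel: percentage of the 80 measured ribosomal protein genes (circles) and of all 4694 measured genes (crosses) that lay above their own median in that cell; cells 7, 27 and 28 stand at 97.5%, 90% and 87.5%. Cells 7 and 27 are green, 28 orange and 17 purple.

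Cells 7 and 27 also went against their label. Of 8 fibroblast and progenitor markers (among them Dcn, Col1a1, Col3a1 and Pdgfra), 7 were detected in cell 7 and 8 in cell 27, with summed levels of 7339 and 10949 FPKM. In each of the other 35 cells at most 1 was detected, and the sum lay between 0 and 604 FPKM. The 12 macrophage markers in the table (Lyz2, C1qa, Cd68, Csf1r and others) summed to 329 and 140 FPKM in these 2 cells, with 10 of the 12 detected in each, and to between 8536 and 48572 in the others. Cell 28, the third of the high cells, had 12 macrophage markers and 1 fibroblast marker. All 12 macrophage markers were detected in at least 19 cells. None of 21 markers of T, B, endothelial, adipocyte and erythroid cells was detected in 5 cells or more, and 17 were detected in no cell. The parts of cell type and of the number of genes detected in the high score of cells 7 and 27 were not tested.

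Over cells, the genes of the set went together weakly. The mean Spearman rho over the 3160 pairs of the 80 genes was 0.150, and 81.3% of the pairs were above 0. Over the 11014471 pairs of all measured genes the mean was 0.0289, with 56.5% above 0. Among 290 other genes detected in at least 30 cells, a cut that not all of the 80 reached, it was 0.0238. Among the 12 macrophage markers it was 0.150, as in the set. Without cells 7 and 27 the mean of the set was 0.0876, beside 0.0268 for all measured genes. Without cell 28 as well it was 0.0622, and without cells 7, 17, 27 and 28 it was 0.0537, beside 0.0236 and 0.0241. In sparse values of this kind a weak correlation is no finding, and these are given as levels.

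Pairs within 1 subunit had a mean of 0.153 and pairs across subunits one of 0.146. The mean was 0.141 within the large subunit and 0.183 within the small. The scores of the large subunit with the stalk and of the small subunit went together at 0.67 over 37 cells, and at 0.60 without cells 7 and 27. Over the 14 genes with under 25% of their words shared it was 0.27.

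Among the most alike pairs were Rpl38 with Rplp1 (rho 0.68, and 0.64 without cells 7 and 27), Rps24 with Rps29 (0.66 and 0.62), Rpl14 with Rps14 (0.65 and 0.60) and Rpl38 with Rps24 (0.63 and 0.57). The least alike were Rpl27a with Rps24 (-0.36 and -0.52), Rpl7 with Rps10 (-0.35 and -0.45), Rpl21 with Rpl35a (-0.34 and -0.36), Rpl12 with Rps20 (-0.34 and -0.46) and Rpl3 with Rps4x (-0.33 and -0.43). Of the 5 least alike pairs, the exception to a large with a small subunit gene was Rpl21 with Rpl35a.

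Each gene was then compared with the score of the other measured genes of the set. Of the 80, 8 had a rho of 0.5 or more, where 0.746% of all measured genes did, and 43 had 0.3 or more, where 10.6% did. Without cells 7 and 27 these counts were 2 and 26, beside 0.320% and 8.37%. Rpl14 was highest at 0.63, followed by Rps14 (0.57), Rpl10 (0.56), Rps15a (0.53) and Rps3 (0.52). The lowest were Rpl21 (-0.11), Rps10 (-0.01), Rps20 (0.01), Rpl26 (0.01) and Rpl27a (0.07). Of these, Rps20 had a median of 751 FPKM and Rps15a one of 5.70.

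**Figure D4:**
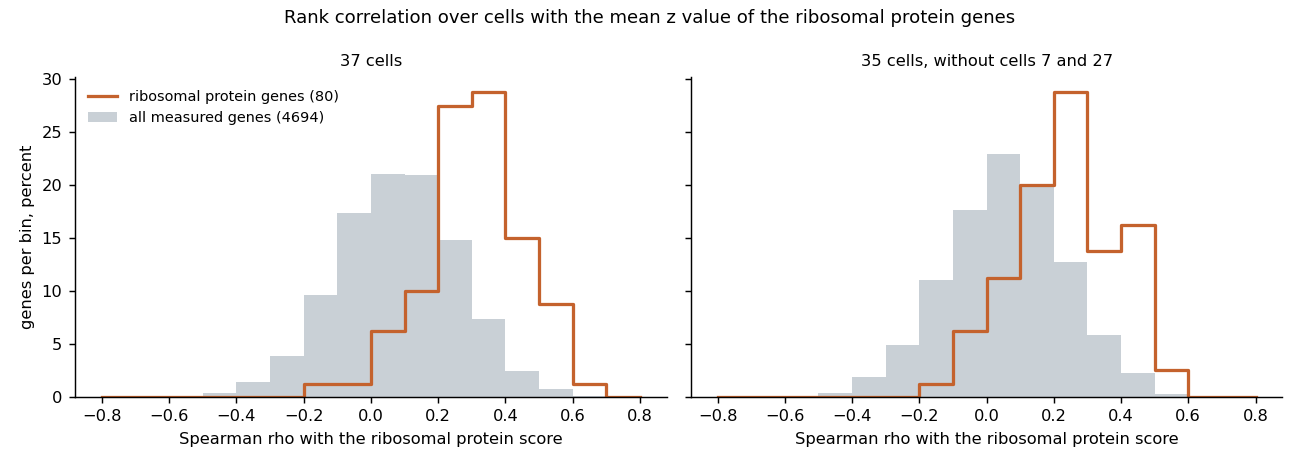
Distribution of the Spearman rho over cells of each gene with the ribosomal protein score (horizontal axis), as percent of genes per bin of 0.1; orange line, the 80 measured ribosomal protein genes, each against the score of the others; grey bars, all 4694 measured genes. Left panel, all 37 cells, with 43 of the 80 at 0.3 or more; right panel, without cells 7 and 27, with 26 of the 80.

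Rpl14, the gene with the highest such rho over all 37 cells, had 0.132 FPKM in its lowest cell and a median of 331. Its highest values were in cells 27 (3190) and 7 (2169), with 908 in cell 28. Its start window above carries a run of 14 C and T letters. Rps15a, of the small subunit, was far lower but had its highest values, 57.1 and 35.6 FPKM, in cells 7 and 28. Rpl15 likewise peaked at 135 FPKM in cell 7. Rpl21 went the other way, with its highest values of 1575 and 492 FPKM in cells 24 and 17, which had scores of -0.25 and -0.94.

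Other ribosomal protein genes outside the naming rule lay within the range of the set. Fau, which encodes a ubiquitin-like protein fused to a small subunit protein, had a median of 498 FPKM (0 to 25485) and a rho of -0.03 with the score. Gnb2l1, the older symbol of Rack1, a signalling scaffold on the small subunit, had 115 (0.974 to 3739) and 0.44. Rpl36al, a retained copy of Rpl36a, had 20.1 (0 to 735) and 0.06.

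The other genes of translation were described from lists. All 37 translation factors were in the table, 36 were measured and 21 were detected in at least 19 cells. Eef1a1, which brings aminoacyl-tRNA to the ribosome, had the highest median of 891 FPKM, followed by Tpt1 with 438 and the initiation factor Eif1 with 87.0. The factors' score went with that of the ribosomal protein genes at a rho of 0.50 over 37 cells. Among single factors, Tpt1 (0.52) and Eef1b2 (0.51) reached 0.5, where 0.746% of all measured genes did, and 8 of 36 reached 0.3, where 10.6% did. Without cells 7 and 27 both Tpt1 and Eef1b2 stood at 0.48.

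The 21 TOP genes other than ribosomal proteins, a list that shares 13 genes with the translation factors, went with the set more closely, at 0.71. Of its 19 measured genes, 9 reached a rho of 0.3 with the score, where 10.6% of all measured genes did, and 1 was below 0. Vim, the intermediate filament vimentin, had its highest median of 1127 FPKM and was the gene below 0, at -0.01. The list without cells 7 and 27 stood at 0.64.

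Genes that build ribosomes were sparse. Of 35 biogenesis genes 20 were measured and 5 were detected in at least 19 cells. Npm1, a nucleolar chaperone, led with a median of 88.8 FPKM, before Nop10 of the pseudouridylation particle with 19.8 and Ncl, nucleolin, with 2.68. Their score went with that of the set at 0.26, at 0.07 with the number of genes detected regressed out, at 0.585 in cells 0 to 19 and at -0.03 in cells 20 to 36. Of the 19 genes of ribosomal protein gene control and of the mTOR and S6 kinase pathway, 10 were measured and none was detected in at least 19 cells. Rheb, the activator of mTOR, had the highest median at 0.859 FPKM, before Akt1 at 0.156 and Yy1 at 0.103. The rho of this list with the set was 0.05.

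The mitochondrial ribosome, built from other genes, gave a further comparison. Of its 77 genes 47 were measured and 3 were detected in at least 19 cells. Mrpl33 had the highest median at 48.8 FPKM, before Mrps21 at 26.3 and Mrpl42 at 3.41. The 77 genes summed to a median of 0.670% of a cell's FPKM, where the 84 cytosolic genes took 9.29%. Their mean pairwise rho was 0.0840, and their score went with that of the cytosolic set at 0.40. That rho was 0.22 with the number of genes detected regressed out and 0.24 without the 6 cells of high fragment value.

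Among measured genes that are no part of the set, the 10 with the highest rho with its score were Aggf1 (0.63), Supt4a (0.60), Polr2l (0.57), Cnih1 (0.56), Rpl14-ps1 (0.55), Snapin (0.55), C330006A16Rik (0.55), Arf5 (0.53), Gng5 (0.53) and Cse1l (0.53). Of these, Gng5 was detected in 30 cells and Rpl14-ps1 in 29, and the other 8 in 14 or fewer. Without cells 7 and 27, 6 of the 10 stood below 0.5. Rpl14-ps1 shares 49.3% of the 50-base words of Rpl14. The lowest were C1qb (-0.52), Klf3 (-0.51), Csf1r (-0.50), Cd74 (-0.46) and Folr2 (-0.44). C1qb, Csf1r, Cd74 and Folr2 are genes of macrophages, but not all such genes were low. Of the 12 macrophage markers, 10 were below 0, with Cd68 at -0.0009, while Tyrobp (0.05) and Lyz2 (0.02) were above. Tyrobp, Lyz2 and Cd68 stood at 0.24, 0.21 and 0.08 when cells 7 and 27 were left out. Without cells 7 and 27 the rho was -0.43 for C1qb, -0.41 for Csf1r, -0.36 for Cd74 and -0.39 for Folr2. For Klf3, detected in 10 cells, it was further from 0 without them, at -0.57. At an equal FPKM sum per cell it was -0.23 for C1qb, -0.37 for Csf1r and -0.16 for Cd74, and at an equal sum of other genes -0.19, -0.34 and -0.11. The score of the 12 macrophage markers went with that of the set at -0.28, at -0.14 without cells 7 and 27, and at 0.05 when every cell was scaled to an equal FPKM sum. A list of 12 genes of macrophage states, which shares Mrc1 with the markers, stood at -0.45, and at -0.38 without cells 7 and 27. Of its genes 9 were below 0, the lowest being Cd74 (-0.46), Apoe (-0.42) and Cxcl2 (-0.39), and the highest was Cd9 (0.29).

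Across genes, which are not replicates, the level went with transcript size. Over the 77 standard genes the median FPKM had a Spearman rho of -0.40 with the length of the GENCODE transcript, which ran from 345 to 5179 bases with a median of 886. It had -0.08 with the share of 50-base words found in other genes and -0.31 with the number of genes sharing them. The interquartile range over cells had 0.43 with the coding length. Transcript length enters the FPKM by construction, and which annotation lies behind the deposited values is not stated.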

How the data were processed

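RNA of 37 single cells was measured by sequencing, each deposited sample being 1 cell, and all cells form 1 group that counts as 1 sample. The deposited table holds FPKM per gene and cell, made by the authors with STAR and Cuffnorm on mm9, per the submitters' processing notes. Their versions, the annotation, the settings and the depth per cell were not given in the sources used here, so counting error per value is unknown. Values were used as deposited, as log2(FPKM + 1) where a scale was needed. Detection was set at 1 FPKM, and measured genes reached it in at least 5 cells.

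Levels are given as the lowest, median and highest cell, and likeness as Spearman's rho over cells. With 1 sample there is no test, and all values are descriptions. For shares of cells the exact 95% interval of Clopper and Pearson is given. The relative value of 1 fragment was estimated for 639 of 666 pairs of cells from the ratios of genes between 0.005 and 1 FPKM, and this estimate and the correlations were tested on simulated data. Coding and transcript sequences and lengths came from GENCODE M21 (GRCm38), which matched 83 of the 84 genes, and promoters from RefSeq (GRCm38.p6). The coding length took the place of the protein length that had been planned.

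Genes were named by a rule: the 10 highest medians, the 10 widest interquartile ranges among genes detected in at least 19 cells, every gene detected in fewer, paralogue forms with their parents, and the 5 highest and 5 lowest genes and pairs by rho. Outside the set, the 10 highest and 5 lowest genes by rho, the 3 highest medians of each list and the ribosomal proteins outside the naming rule were named. Pairs with copies, genes with lone extremes and genes cited for a single value were named after their values were seen. Some genes that this rule names are not reported here. The members and lists were chosen with earlier results of these data known. Python 3.11.15, numpy 2.4.6, pandas 2.3.3, scipy 1.17.1 and matplotlib 3.10.9 were used.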

Additional observations from a re-analysis of the deposited data

How the results depend on the processing

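Of 21 results recomputed under 17 alternatives, 4 of them added after the data were seen, 235 of 327 values stayed within 1.5 times of the reported value (for the rho of a score with another score or gene, within 0.1) and 89 moved further. Another 3 changed sign from a reported rho of at least 0.1 in size. The rho with Trem2, -0.05, also changed sign in 4 alternatives: 0.03 as Pearson's r, 0.03 without cells 7 and 27, 0.0060 without cell 28 as well, and 0.12 over the genes of little shared sequence. The share of summed FPKM, the number of genes detected in at least 19 cells and the number at 0 stayed within these limits in every alternative run. Cells 20 to 36 are 17 cells, so the 77 genes counted there must rest on a cut lower than 19 cells. Cells 0 to 19 are 20 cells and also gave 77, although Rps2 stood at 0 in cells 2, 4 and 14. Without cells 7, 27 and 28 the count was 76, and without cell 17 as well it was 77. No fixed cut allows such a rise. In these alternatives the count is thus not the same measure, and it may not be in others that leave out cells. The mean pairwise rho of 0.150 was 0.0876 without cells 7 and 27, 0.0622 without cells 7, 27 and 28, and 0.0537 without cells 7, 17, 27 and 28. The rho of the large and small subunit scores, 0.67, was 0.85 at an equal FPKM sum, 0.84 at an equal sum of other genes, 0.83 as Pearson's r and 0.83 with the number of genes detected regressed out. It was 0.51 without cells 7, 17, 27 and 28, and 0.27 over the 14 genes with under 25% of their words shared. The 35 genes at a rho of 0.5 or more became 56 at an equal sum of other genes, 69 with Pearson's r, 15 without cells 7 and 27, 11 without cell 28 as well, and 12 without cell 17 in addition. They were 20 with the 14 genes of little shared sequence, 63 in cells 0 to 19 and 138 in cells 20 to 36, which split the cells by label number and hold fewer cells. The rho with translation factors, 0.50, was 0.64 at an equal FPKM sum, 0.63 at an equal sum of other genes, 0.67 as Pearson's r, 0.29 in cells 0 to 19 and 0.76 in cells 20 to 36. It was 0.36 without cells 7, 27 and 28, and 0.31 without cell 17 as well. The rho with biogenesis genes was -0.0319 in cells 20 to 36, and that with macrophage markers 0.0510 and 0.0752 at the equal sums. The causes were not tested. No paired analysis was possible because all cells form 1 group. The table gives no depth, no animal and no rule for reads that match several genes, which limits all values of genes with near-identical copies.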
